A study of Macaca mulatta with 449 samples.

Results

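The 8 genes described here belong to the anterior pituitary, the gland under the hypothalamus that releases growth hormone, prolactin, thyrotropin, corticotropin and the gonadotropins. They are 5 transcription factors (*LHX3*, *POU1F1*, *TBX19*, *NR5A1* and *SIX2*) and 3 receptors for hormones that the hypothalamus sends to the gland (*GHRHR*, *GNRHR* and *TRHR*). They were found in a table of 30807 genes by their symbols, and 7 of the 8 had a row. *TBX19*, a T-box factor of the corticotropin-producing cells, had no row under its reference identifier and was not analysed here.

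RNA was sequenced from 51 brain sub-regions of 8 healthy rhesus macaques after ribosomal RNA had been removed, which keeps RNA that lacks a poly(A) tail as well. The midbrain was sequenced as a further sub-region, but its libraries were not analysed here. Each library was 1 sub-region of 1 animal, 8 from the pituitary and 400 from elsewhere, and the animals keep the numbers of their labels. The young animals, aged 3.2 to 5 years, were the males macaque 7 and macaque 8 and the females macaque 4 and macaque 10. The mid-aged animals, aged 9.8 to 10 years, were the males macaque 2 and macaque 3 and the females macaque 6 and macaque 11. The labels give no strain and no treatment, and they name the pituitary without a lobe. Levels are given as CPM, which are counts scaled to a common library size with TMM factors.

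During development the anterior lobe arises from an epithelial pouch in which the LIM homeodomain factor LHX3 is needed for most of the hormone-producing lineages. POU1F1, also called PIT-1, is then required for the cells that make growth hormone, prolactin and thyrotropin, and it binds the genes of these hormones. NR5A1, or steroidogenic factor 1, marks the gonadotropes, and it is also found in neurons of the ventromedial hypothalamus. SIX2 is a homeodomain factor of the sine oculis family that is best known from the progenitor cells of the kidney. GHRHR, GNRHR and TRHR are G protein-coupled receptors for growth hormone-releasing hormone, gonadotropin-releasing hormone and thyrotropin-releasing hormone, which reach the gland through the portal vessels. The receptors are known from the somatotropes, the gonadotropes, and the thyrotropes together with the lactotropes, respectively. TRHR is also known from neurons.

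The libraries held 7784678 to 31083490 counts on genes (median 10698602), and those of the pituitary 8553816 to 13438044. In the pituitary the summed level of 7 secretory granule genes lay between 8325 and 25711 CPM, against 178 to 4588 CPM in the 400 other libraries. Summed levels of 7 neuron, 5 astrocyte and 5 oligodendrocyte markers reached at most 513, 119 and 50.1 CPM in the pituitary, with no marker at 0 in all 8 libraries. Markers of the posterior lobe differed widely among the 8 glands, from 0.375 CPM in macaque 2 to 64.3 CPM in macaque 8. Outside the gland, the medial orbital gyrus library of macaque 11 held pituitary hormone genes (*GHV*, growth hormone, 1860 CPM, and *PRL*, prolactin, 636 CPM). Ratios of means that rest on it are given with and without it, and other results that rest on it are named as such. The hypothalamus library of macaque 6 held the cortical gene *SLC17A7* at 472 CPM, against 0.960 to 4.94 CPM in the other 7.

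The pituitary was compared with the mean of the 50 other sub-regions to ask how far the 7 genes are read outside the gland. Each of the 7 genes had its highest mean in the pituitary. In edgeR's quasi-likelihood test over all libraries, with the animal as a block, 7 of 7 were higher in the gland at a false discovery rate (FDR) under 0.05 and a fold above 2, beside 19.9% of the 17121 genes tested. The largest of their FDR values was 4.75e-63, for *TRHR*. The spread in that fit was pooled over all sub-regions, so these FDR values do not measure the spread among the glands. For *TRHR* the SE of the log2 fold change in it was 0.21, while its level in the glands ran from 1.3 to 27 CPM. All 7 also exceeded every other sub-region by a fitted fold above 2, beside 4.05% of the genes tested. For *TRHR* this fold was 2.68, against the hypothalamus, and in the paired fit of those tissues alone it was not called. *LHX3*, *GHRHR* and *GNRHR* passed the filter on low counts through the pituitary alone, so their calls there were set by the filter. In whole tissue a difference in the number of cells of a type and a difference in RNA per cell cannot be told apart.

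*LHX3* stood at 291 CPM in macaque 2, 364 in macaque 3, 149 in macaque 4, 150 in macaque 6, 172 in macaque 7, 235 in macaque 8, 176 in macaque 10 and 169 in macaque 11. Macaques 2 and 3, the mid-aged males, were the highest, macaque 8 came next, and the other 5 glands lay between 149 and 176 CPM. Its mean of 213 ± 77.9 CPM (SD, n = 8) was 5336 times the mean of the 400 other libraries, and 7109 times without the medial orbital gyrus library of macaque 11. The 400 libraries together held 193 counts of *LHX3* in 74 libraries, whereas the gland with the fewest held 1381.

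*POU1F1* reached 494, 681, 838, 794, 542, 643, 567 and 1046 CPM in the glands of macaques 2, 3, 4, 6, 7, 8, 10 and 11. Macaque 11 was the highest and macaque 2 the lowest, a ratio of 2.12. The mean of 701 ± 184 CPM (SD, n = 8) was 226 times that of the other libraries. Unlike *LHX3*, this gene had counts in all 400 libraries outside the gland, 13928 in total, and the highest sub-region mean there was 5.80 ± 2.09 CPM in the superior postcentral gyrus.

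*NR5A1*, the gonadotrope factor, stood at 60.5, 32.6, 33.6, 21.8, 50.9, 32.6, 52.5 and 32.8 CPM in the same order of animals. The hypothalamus came second with 6.37 ± 6.42 CPM, and the gland was 6.22 times higher than that (39.6 ± 13.2 CPM, SD, n = 8). The lowest gland, of macaque 6, was still above the highest library elsewhere, the hypothalamus of macaque 8 at 15.1 CPM.

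*SIX2* varied least among the 8 glands, with 48.8, 42.4, 38.3, 35.8, 44, 28.5, 47.5 and 39.5 CPM. Its coefficient of variation was 16.3%, against 26.2% to 119% for the other 6 genes. The olfactory bulb came second with 1.31 ± 0.512 CPM, and the pituitary mean of 40.6 ± 6.61 CPM (SD, n = 8) was 31 times as high.

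*GHRHR*, the receptor through which the hypothalamus drives growth hormone, stood at 567 CPM in macaque 2, 1010 in macaque 3, 1127 in macaque 4, 254 in macaque 6, 889 in macaque 7, 1835 in macaque 8, 1391 in macaque 10 and 447 in macaque 11. The young animal with the lowest level, macaque 7, lay above 3 of the 4 mid-aged animals. Between the lowest and the highest gland the level differed 7.23 times. The mean of 940 ± 521 CPM (SD, n = 8) was 8359 times that of the other libraries, and 39120 times without the medial orbital gyrus library of macaque 11, which alone held 502 of the 607 counts outside the gland.

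*GNRHR*, the receptor of the gonadotropes, reached 30.0, 76.8, 45.3, 12.2, 71.4, 31, 29.4 and 34.8 CPM in macaques 2, 3, 4, 6, 7, 8, 10 and 11. Macaques 3 and 7, both males, stood apart at the top and macaque 6 at the bottom, with the other 5 glands between 29.4 and 45.3 CPM. No other sub-region had a mean above 0.0639 CPM, that of the substantia nigra. The 400 libraries outside the gland held 128 counts in 85 libraries, at most a few in each.

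*TRHR* was the exception. It stood at 3.37, 1.84, 3.88, 24.6, 7.14, 1.3, 2.24 and 27 CPM in the same 8 glands, with the mid-aged females, macaques 6 and 11, far above the other 6. The median gland had 3.63 CPM, and the mean of 8.92 ± 10.6 CPM (SD, n = 8) was 3.12 times that of the hypothalamus (2.86 ± 1.52 CPM), a difference smaller than the spread among the glands. The pituitary was the highest sub-region within 6 of 8 animals, whereas for each of the other 6 genes it was so within 8 of 8. For those 6 genes the lowest gland also lay above the highest of the 400 other libraries, which held for 3.06% of the genes tested, and for *TRHR* it did not.

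**Figure D1:**
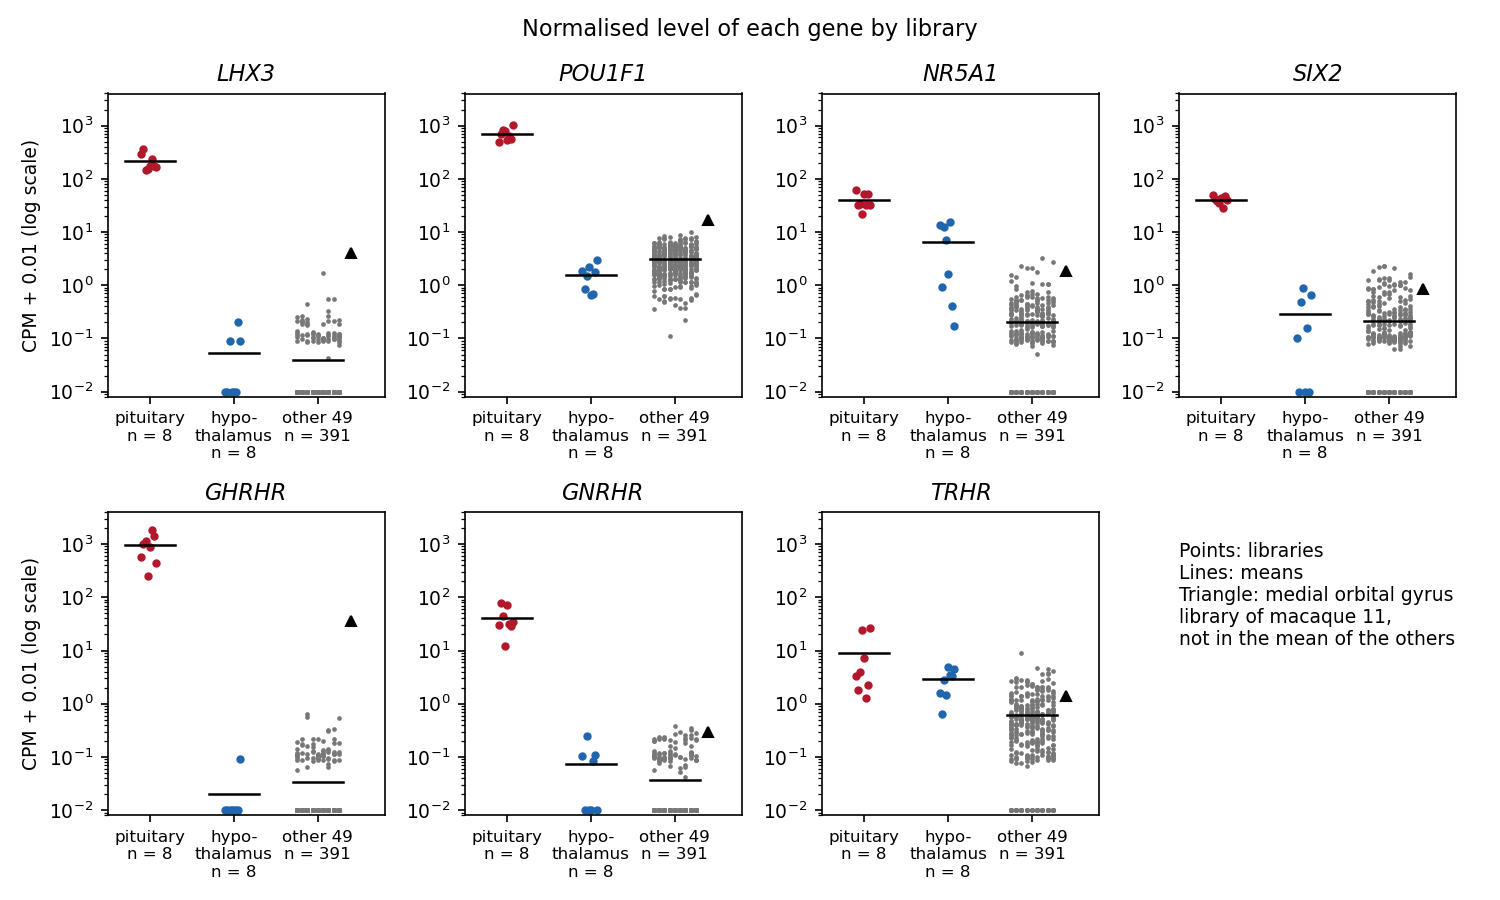
Level of each of the 7 genes by library, as CPM plus 0.01 on a log scale, in the pituitary (8 libraries), the hypothalamus (8) and the other 49 sub-regions (391), with lines at the means. The triangle is the medial orbital gyrus library of macaque 11, which is not in the mean of the others. The pituitary libraries lie apart from the rest for every gene but *TRHR*, and *NR5A1* spreads widely in the hypothalamus.

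The genes around these 7 in the same pathways were counted next, from lists of genes with related roles. Of 18 other lineage factors tested, 15 were higher in the pituitary and 1 was lower, with a median log2 ratio of means of 1.97 (all genes tested, −0.06). *SIX3*, a homeodomain factor, had a mean 10.6 times that of the other sub-regions and *ISL1*, a LIM homeodomain factor, 9.03 times. *HESX1*, a repressor of the early pouch, was lower, at 0.193 times the mean elsewhere. Of 19 other receptors for releasing factors, feedback steroids and related signals, 8 were higher and 2 lower (median 0.39), where 20.9% of all genes tested were lower. *ESR1*, the estrogen receptor alpha, was higher at 29.7 times, *GHSR*, the ghrelin receptor, at 26.1 times and *DRD2*, the dopamine receptor that restrains prolactin, at 3.91 times. The somatostatin receptor *SSTR1* (0.191 times) and the VIP receptor *VIPR1* (0.0462 times) were lower.

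All 5 hormone genes with a row were higher in the gland. The ratio of means was 21111 for *PRL*, 8577 for *CGA* (the common alpha subunit of the glycoprotein hormones), 6942 for *GHV*, 536 for *LHB* (the luteinizing hormone beta subunit) and 105 for *FSHB* (the follicle-stimulating hormone beta subunit). Without the medial orbital gyrus library of macaque 11 it was 31331 for *PRL*, 28191 for *CGA* and 36706 for *GHV*. *GHV* is the symbol of the growth hormone row, and near-identical growth hormone copies could have shared its reads. Of 10 hypothalamic ligands tested, 3 were higher and 4 lower. *CRH*, *SST* and *VIP* were at 0.00147, 0.00259 and 0.00860 times the mean elsewhere, and *NPVF*, also called lower, had no count in the pituitary. *GNRH2* was higher at 3.00 times. *TRH* and *OXT* were called higher by the fit, which averages log levels over sub-regions, while their ratios of mean CPM were 1.14 and 0.269. *GNRH1* (1.38 times), *UCN* (0.699 times) and *TAC3* (0.00188 times) were not called, the last because the fit gave no usable test, and *GHRH* and *KISS1* did not pass the filter on low counts.

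Cell markers moved with these genes. All 17 neuron, astrocyte and oligodendrocyte markers were lower in the pituitary, among them *SYT1* (0.0173 times), *SLC17A7* (9.67e-04 times), *NEFL* (0.0188 times), *GFAP* (0.0112 times), *SLC1A2* (0.00368 times), *SLC1A3* (0.00925 times) and *MBP* (0.00213 times). Of 6 connective tissue markers 5 were higher, with *COL1A1* at 25.8 times, *COL1A2* at 10.1 times and *LUM* at 9.53 times. The summed connective level was 339 to 591 CPM in the pituitary and 93.9 to 556 CPM elsewhere, and its part in the levels of the 7 genes was not tested. Of 7 secretory markers 6 were higher, *CHGB* the most at 19.4 times, followed by *SCG2* at 4.37 and *CHGA* at 3.88 times, and *PCSK2* was lower at 0.269 times. Of 7 endothelial markers, *PLVAP*, which marks fenestrated vessels, was higher (6.02 times) and *FLT1* lower (0.349 times). None of 4 immune markers was called, and neither blood marker passed the filter. Of the posterior lobe markers, *NKX2-1*, a factor also of the hypothalamus, was called higher at 10.5 times, a ratio that rests on macaque 8 (21.5 CPM, median gland 0.758 CPM) and was 3.11 times without that gland, and *COL25A1* was not called (0.797 times).

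The pituitary was then set against the hypothalamus of the same animals, the source of the releasing hormones. In the paired edgeR fit 6 of the 7 genes were higher in the gland, beside 14.6% of the 14958 genes tested, and *TRHR* was not called. For *LHX3*, *SIX2*, *GHRHR* and *GNRHR* no hypothalamus library reached the minimum of the filter on low counts, and *POU1F1* reached it in 5, *NR5A1* in 6 and *TRHR* in 7, where 8 libraries are needed. All 7 genes thus passed through the gland, so that the 6 calls were set by the filter and the levels are given as a description. *LHX3* had 4 counts in the 8 hypothalamus libraries together against 20145 in the pituitary, a ratio of mean CPM of 4838. The ratio was 453 for *POU1F1* and 145 for *SIX2*, which had 26 counts in the hypothalamus. For *GNRHR*, with 6 counts in the hypothalamus, it was 662. *GHRHR* had a single count in the hypothalamus and 96147 in the gland, a ratio of summed counts of 95195 with an exact 95% interval of 17086 to 3759985 that covers counting error only.

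*NR5A1* in the hypothalamus stood at 13.5 CPM in macaque 2, 0.915 in macaque 3, 12.3 in macaque 4, 7.09 in macaque 6, 1.59 in macaque 7, 15.1 in macaque 8, 0.389 in macaque 10 and 0.160 in macaque 11. There were 4 high and 4 low libraries, with no library between 1.59 and 7.09 CPM, while the gland was higher within 8 of 8 animals. *FEZF1*, a forebrain factor that is also known from the ventromedial hypothalamus, stood at 84.4, 33, 59.4, 30.6, 31.6, 69.4, 8.84 and 13.8 CPM in the same libraries. The 3 libraries highest for *NR5A1* were also the 3 highest for *FEZF1*, and the 2 lowest were the same. How much of the ventromedial nucleus each block of tissue held was not tested.

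*TRHR* in the hypothalamus stood at 1.60, 0.641, 2.82, 1.48, 4.91, 3.53, 3.30 and 4.56 CPM in macaques 2, 3, 4, 6, 7, 8, 10 and 11. It was higher in the gland in 6 of 8 animals, and lower in macaques 8 and 10. The log2 fold change was 0.99 ± 0.53 SE (edgeR FDR 0.115). Without macaque 8 it was 1.34 with an FDR of 0.0319, and over the fits that leave out each animal in turn it ran from 0.57 to 1.34, the lowest without macaque 6. *TRH*, the ligand, lay between 34.5 and 134 CPM in the hypothalamus and was lower in the gland, at 0.0731 times.

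Among the lists, the hypothalamic ligands had 6 of 7 tested genes lower in the pituitary than in the hypothalamus and the hormones 5 of 5 higher. Beside *TRH*, the lower ligands were *CRH* (0.00173 times), *OXT* (0.00553 times), *SST* (8.79e-04 times), *TAC3* (0.00136 times) and *GNRH1* (0.338 times), and *GNRH2* was not called at 1.90 times. *GHRH* was too low to be tested, from no count to 4.93 CPM in the 8 hypothalamus libraries. Of 16 other lineage factors 12 were higher in the gland and none lower, including *SIX3* (2.84 times), whereas *ISL1* was not called (0.677 times). Of 19 other receptors 6 were higher and 6 lower, beside 20.5% of all genes tested that were lower.

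To see where these genes are read outside the gland, the 15 other region groups were compared with each other without the pituitary libraries. Only 4 of the 7 genes passed the filter on low counts there. All 4 varied among the groups (edgeR F test, largest FDR 1.23e-12), as did 99.4% of the 16639 genes tested, so this count carries no information on them. Each group was then set against the mean of the other 14, and the 4 genes gave 16 calls.

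*NR5A1* was higher in the hypothalamus (log2 fold change 6.28 ± 0.29 SE, edgeR FDR 8.24e-35, beside 6.26% of genes called higher there) and in the pons (4.75 ± 0.36, FDR 3.35e-21, beside 6.39%). The pons libraries held 2.76, 1.52, 1.41, 2.27, 2.12, 2.09, 1.73 and 3.21 CPM in macaques 2, 3, 4, 6, 7, 8, 10 and 11. All 8 lay within a ratio far smaller than in the hypothalamus, and the pons mean was 2.14 ± 0.614 CPM. Its 8 pons libraries and 6 from the hypothalamus carried *NR5A1* over the filter on low counts, and without the pons it was not tested, so the call in the pons was set by the filter. Smaller calls were made for the entorhinal and perirhinal cortex (log2 fold change 1.90, beside 9.34%) and the amygdala (1.57, beside 9.15%), with means of 0.348 and 0.272 CPM. No count was read in 8 olfactory bulb or 16 cerebellum libraries, which allows up to 3 counts in all, or 0.0283 and 0.0156 CPM. Both groups entered the mean against which the others were set, which raises all 4 fold changes of *NR5A1*. Groups not called had means of 0.219 CPM (medulla oblongata), 0.192 CPM (globus pallidus) and 0.186 CPM (cerebral cortex), near those of the smaller calls.

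*TRHR* had 8 of the 16 calls. It was higher in the hypothalamus (2.86 ± 0.32, edgeR FDR 7.98e-13, beside 6.26%), the hippocampus (1.45, beside 8.40%), the corpus callosum (1.45, beside 13.5%), the amygdala (1.44, beside 9.15%), the entorhinal and perirhinal cortex (1.43, beside 9.34%), the striatum (1.17, beside 8.56%) and the ventral tegmental area (1.04, beside 5.08%). In the pons it had no count in any of 8 libraries, which allows up to 0.0374 CPM, and it was called lower there, beside 8.18% of genes. That group entered the mean against which the others were set. Without the pons 9 calls were made, of which 5 were among the 16. *TRHR* was then higher in the hypothalamus alone (2.34, edgeR FDR 1.23e-10) and lower in the cerebellum, the olfactory bulb, the thalamus and the substantia nigra (log2 fold changes of −2.57, −1.90, −1.55 and −1.50). No share of all genes is given for the calls without the pons, so their number is not read as a result.

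By sub-region, *TRHR* was followed after the hypothalamus by the accumbens nucleus (2.70 ± 2.86 CPM), the anterior cingular gyrus (2.30 ± 1.68 CPM), CA1 of the hippocampus (1.74 ± 1.00 CPM) and the insula (1.59 ± 0.867 CPM). The accumbens nucleus of macaque 6 held 8.91 CPM, its other 7 libraries 0.219 to 4.60 CPM. The sub-regions of a group differed, as the putamen, in the striatum with the accumbens nucleus, had no count in 8 libraries and the caudate nucleus 0.196 ± 0.339 CPM. In the hippocampus, CA3 had 1.49 ± 0.740 CPM and the dentate gyrus 0.196 ± 0.403 CPM. In the order of the 51 sub-region means, 49 of 50 neighbours differed by less than the larger of their SDs, the first pair included.

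*SIX2* was higher in the olfactory bulb (2.88 ± 0.32, edgeR FDR 6.22e-14, beside 10.2%). The olfactory bulb libraries stood at 1.24, 1.83, 1.28, 2.29, 0.687, 0.995, 1.02 and 1.16 CPM in macaques 2, 3, 4, 6, 7, 8, 10 and 11, so that counts were read in every animal. It was also called higher in the entorhinal and perirhinal cortex (1.11, beside 9.34%) and lower in the cerebral cortex (log2 fold change −1.10, beside 8.12%). The summed connective tissue markers were 304 to 556 CPM in the olfactory bulb and 122 to 262 CPM in the 248 cortex libraries, and their part in the level of *SIX2* was not tested.

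*POU1F1* was called in 1 group, higher in the cerebral cortex (1.3 ± 0.12, edgeR FDR 3.73e-17, beside 9.12%). The cortex mean was 3.96 ± 1.12 CPM, the pons came next with 2.24 ± 0.900 CPM and the corpus callosum was lowest with 0.983 ± 0.517 CPM. The 31 sub-regions of the cortex group took the ranks after the pituitary, from the superior postcentral gyrus at 5.80 CPM down to the ventromedial prefrontal cortex at 2.34 CPM. The entorhinal and perirhinal cortex, a group of its own here, came at rank 38 with 1.89 CPM. The strand setting of the read counting is not given in the sources used here, so these reads cannot be assigned to *POU1F1* mRNA rather than to a transcript that overlaps the gene.

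**Figure D2:**
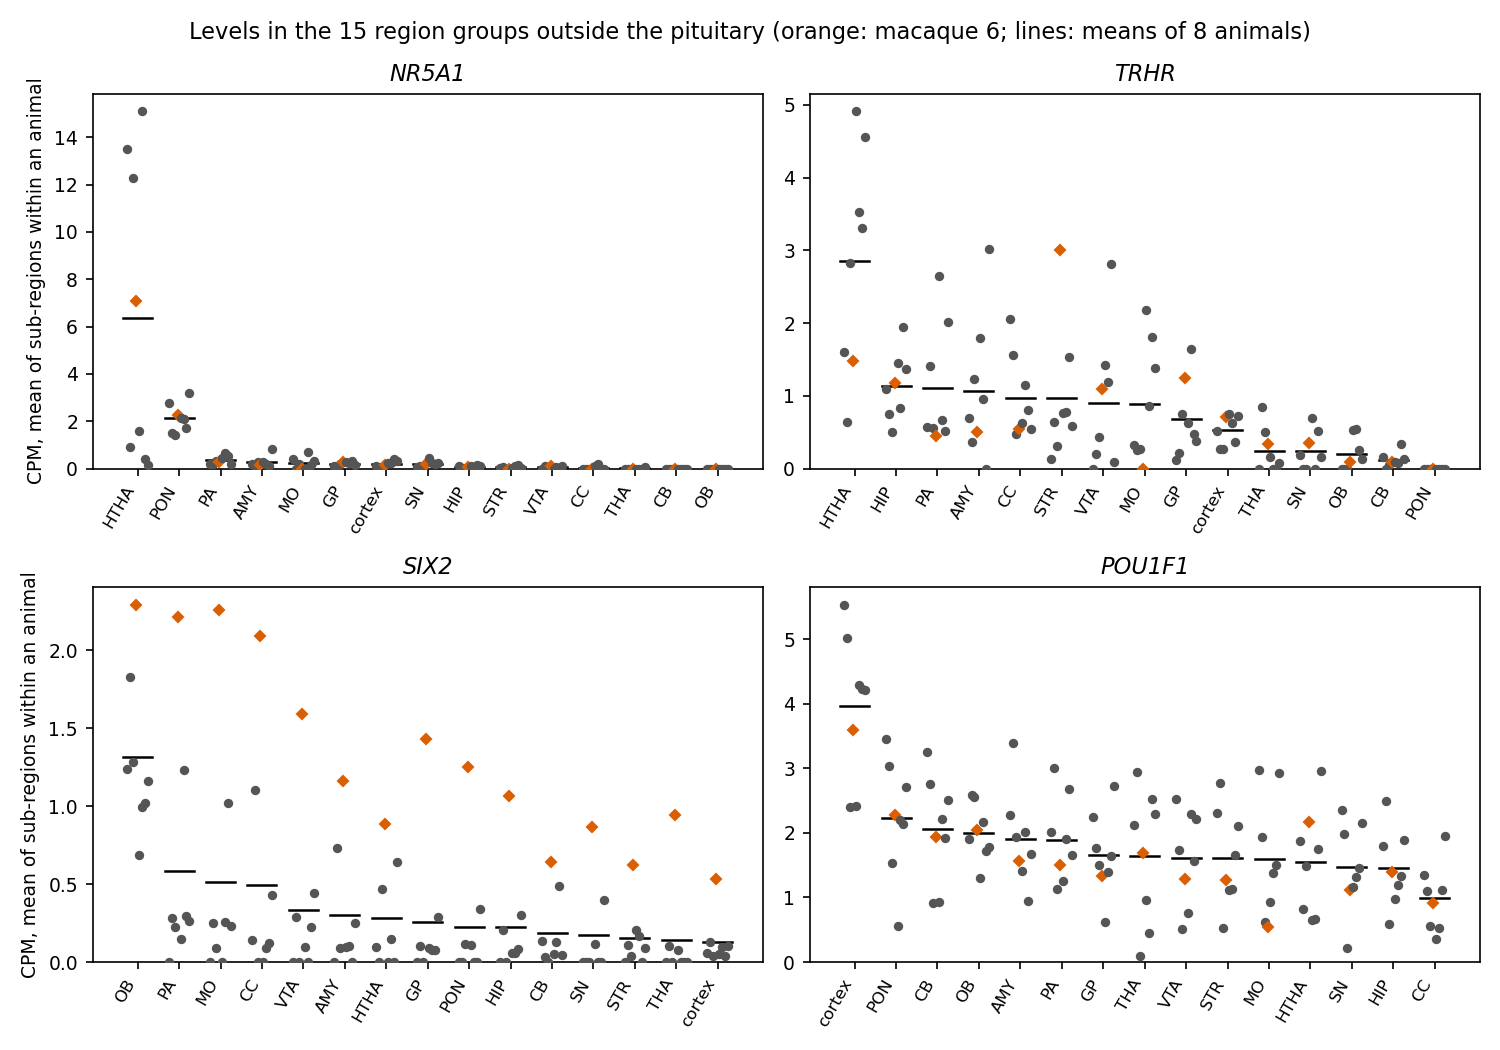
CPM of *NR5A1*, *TRHR*, *SIX2* and *POU1F1* in the 15 region groups outside the pituitary, as the mean over sub-regions within each of 8 animals, with lines at the means (HTHA, hypothalamus; PON, pons; PA, entorhinal and perirhinal cortex; AMY, amygdala; MO, medulla oblongata; GP, globus pallidus; SN, substantia nigra; HIP, hippocampus; STR, striatum; VTA, ventral tegmental area; CC, corpus callosum; THA, thalamus; CB, cerebellum; OB, olfactory bulb). Orange diamonds mark macaque 6, which is the highest animal for *SIX2* in every group, the cortex included.

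Traces of the other 3 genes were read outside the gland. *LHX3* had 41 counts in 7 of 8 libraries of the medulla oblongata, 20 of them in macaque 8 (1.72 CPM), and 22 counts in 7 of 8 libraries of the olfactory bulb. With a looser filter, which asks for more than 1 count in 3 or more samples, *LHX3* was called higher in the medulla oblongata (log2 fold change 3.92, edgeR FDR 3.16e-14, beside 8.22% of 24839 genes) and in the olfactory bulb (3.02, FDR 5.63e-08, beside 12.7%). It was called lower in the cerebellum (log2 fold change −2.07, FDR 0.0479, beside 14.1%), and it had no count in any library of 11 sub-regions. *GHRHR* had 24 counts in 7 of 8 globus pallidus libraries, at most 7 in each, and was called higher there (4.89, FDR 1.84e-08, beside 9.62%). Pituitary hormone genes were also read in that sub-region, with *GHV* at 0 to 7.75 CPM (median 4.17), *PRL* at 0 to 262 CPM (median 9.45) and *CGA* at 0 to 0.727 CPM (median 0.291), against medians of 0 in the other 391 libraries. By animal, the median of *GHV* outside the gland ran from 0 to 3.56 CPM, the highest in macaque 7. With the medial orbital gyrus library of macaque 11 left out, the globus pallidus was the highest sub-region outside the gland for *GHRHR* in 6 animals, for *GHV* in 5, for *PRL* in 2 and for *CGA* in 2, and the part of pituitary RNA in the *GHRHR* counts was not tested. The call of *GHRHR* in the cerebral cortex (2.66, beside 12.3%) rests on the medial orbital gyrus library of macaque 11, without which 55 of 557 cortical counts were left. *GHRHR* was also called higher in the olfactory bulb (3.20, edgeR FDR 0.00118, beside 12.7%), from 10 counts in 5 of 8 libraries. The corpus callosum, pons, substantia nigra and thalamus held no count of *GHRHR* and entered the mean of the other groups, which raises its fold changes. *GNRHR* was called in no group, had no count in any library of 7 sub-regions, and 43 of 50 neighbours in its order differed by less than the larger of their SDs.

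The medial orbital gyrus library of macaque 11 held 35.4 CPM of *GHRHR*, 16.6 of *POU1F1*, 4.02 of *LHX3* and 1.83 of *NR5A1*. In the other 7 libraries of that gyrus *GHRHR* reached at most 0.321 CPM, *POU1F1* 4.95 CPM and *LHX3* 0.250 CPM. The excess of this library was set against each animal's own pituitary for *GHV*, *PRL*, *CGA*, *LHX3*, *POU1F1* and *GHRHR*, the 6 of 12 genes examined that had more than 50 counts in it, a choice made after these values were seen. Against the gland of macaque 10 the 6 genes gave 2.24% to 2.54% of the pituitary level, a ratio of 1.14 between the highest and the lowest. The other 6 genes, with 1 to 45 counts in the library, did not fall on that value, with 3.28% for *NR5A1*, 1.59% for *SIX2*, 0.848% for *GNRHR* and 0.745% for *FSHB*, and *TRHR* and *LHB* lay below the mean of the other 7 libraries. Against the gland of macaque 11, the labelled animal, they gave 0.272% to 15.2%, a ratio of 55.8, and for the other 6 animals the ratio ran from 1.52 to 300.

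*SIX2* outside the gland differed by animal. Over the 50 sub-regions other than the pituitary, macaque 6 had a mean of 0.796 CPM with counts in 50 of 50 libraries, and the other 7 animals had means of 0.0701 to 0.195 CPM. Macaque 6 was the highest animal in 45 of the 50 sub-regions. In the pituitary itself it was seventh of 8 with 35.8 CPM, and for the related gene *SIX3* its mean outside the gland (1.31 CPM) lay within the range of the others (1.23 to 1.84 CPM). Without macaque 6 the olfactory bulb stayed first outside the gland, with 1.17 CPM, and the entorhinal and perirhinal cortex had 0.349 CPM in place of 0.582 CPM.

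**Figure D3:**
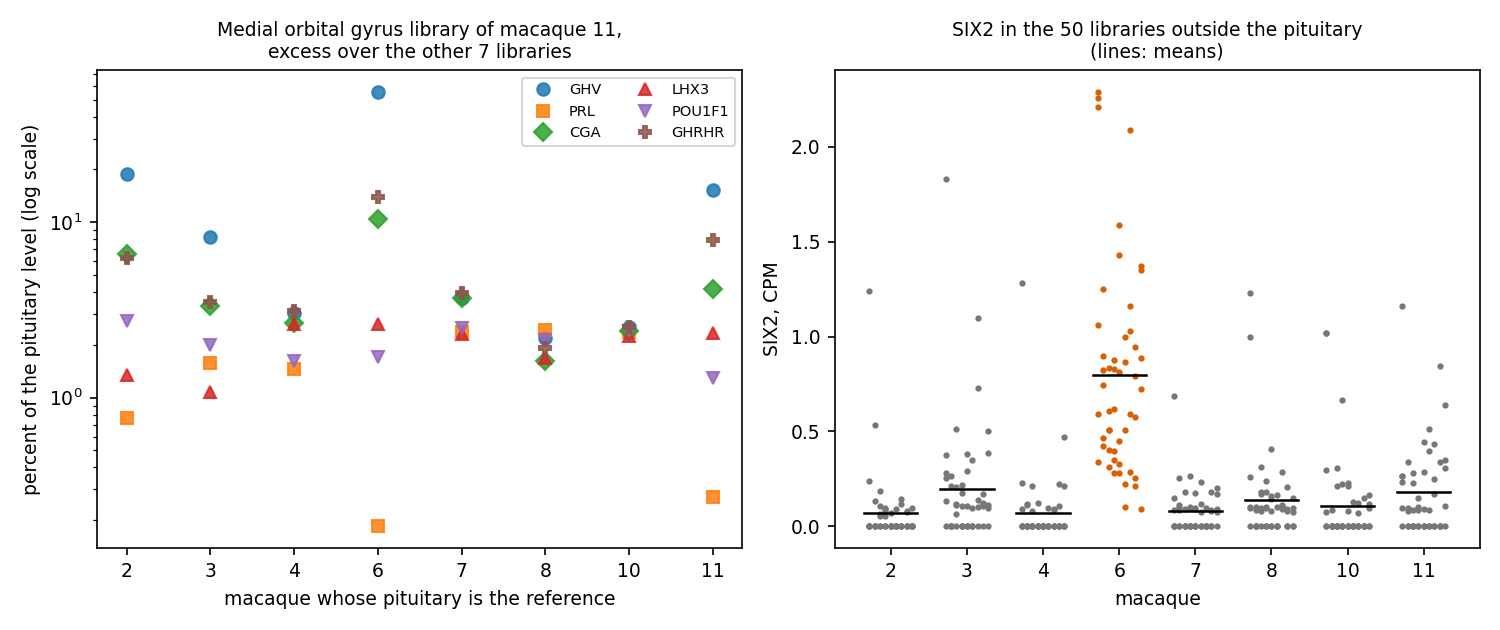
Left, the excess of the 6 genes with more than 50 counts in the medial orbital gyrus library of macaque 11, over the other 7 libraries of that gyrus, as percent (log scale) of the level in the pituitary of each animal. The 6 genes fall on almost 1 value (2.24% to 2.54%) against macaque 10 and spread most against macaque 6. Right, *SIX2* CPM in the 50 libraries outside the pituitary by animal, with lines at the means, 0.796 CPM in macaque 6 against at most 0.195 CPM in the others.

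The genes whose sub-region means followed each of the 7 most closely were sought among 13208 genes with a symbol, by Pearson's *r* of log2(CPM + 1). Over the 51 sub-regions *r* mostly records the gap between the gland and the rest, and the points share the same 8 animals. *LHX3*, *GHRHR* and *GNRHR* were close to each other and to *TNS4* (*r* 0.9974, 0.9975 and 0.9994), and *GHRHR* was closest to *CGA* (*r* 0.9993). For *GNRHR* the closest was *RBBP8NL* (*r* 0.9994). *SIX2* was closest to *PLEKHG6* (*r* 0.9901), *CHMP4C* and *OSR2*, and *POU1F1* to *UTS2R* (*r* 0.9646), *RAB17* and *ARHGEF38*. *LHX3* had 58 genes above an *r* of 0.95, *GNRHR* 57, *GHRHR* 54, *SIX2* 48, *POU1F1* 2, *NR5A1* 1 and *TRHR* none. With 0.1 added in place of 1, these counts were 17 for *GNRHR* and 16 each for *LHX3* and *GHRHR*. They were 0 for *SIX2*, *POU1F1*, *NR5A1* and *TRHR*, so the counts depend on this choice.

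Without the pituitary, over 50 sub-regions, other genes came first for *SIX2*, *POU1F1* and *TRHR*, but not for *NR5A1* and *GHRHR*. *NR5A1* was closest to the potassium channel gene *KCNJ5* (*r* 0.8567 over 50 and 0.9627 over 51 sub-regions), followed by *NODAL* and *IL1RL1*. *SIX2* was closest to *SMTNL2* (*r* 0.9233), *MFAP4* and *SLC6A20*. *POU1F1* was closest to *ACTR1B* (*r* 0.9299), *LPIN3* and *RAB17*, the last of which was also among its 3 closest with the gland. *TRHR* was closest to *NXNL2* (*r* 0.7817) and, with the gland, to *RADX* (*r* 0.7882). For *GHRHR* (closest *CGA*, *r* 0.9134) the order over 50 sub-regions rests on the medial orbital gyrus library of macaque 11.

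Age was compared in the pituitary between the 4 mid-aged and the 4 young animals, with sex as a covariate. None of the 7 genes was called at an FDR under 0.1 and a fold above 2, beside 0.206% of the 14595 genes tested, with 1 of the 7 (*GHRHR*) and 7.20% of all genes at an unadjusted p under 0.05 in edgeR. *GHRHR* was 570 ± 321 CPM in the mid-aged and 1311 ± 405 CPM in the young (SD, n = 4 each). The ranges overlapped because macaque 3 (1010 CPM) lay above macaque 7 (889 CPM). The log2 fold change was −1.29 ± 0.34 SE with an edgeR FDR of 0.33, whereas DESeq2 gave −1.28 with an FDR of 0.0112 and so called it, beside 1.08% of genes. Without macaque 7 the edgeR fold change was −1.56 with an FDR of 0.0599. Markers of the other lobes and of astrocytes were also lower in the median mid-aged gland, with overlapping ranges. For 2 intermediate lobe markers, *PAX7* and *PCSK2*, the sums were 5.53 to 64 CPM in the mid-aged and 26.7 to 132 CPM in the young. These sums were almost all *PCSK2* (means 23.4 and 67.6 CPM, *PAX7* 0.319 and 2.35 CPM). *PCSK2* is also a secretory marker and was lower in the pituitary than elsewhere, so this sum is no measure of the intermediate lobe alone. The sums were 0.375 to 23.8 and 2.38 to 64.3 CPM for 3 posterior lobe markers, and 18.2 to 99.2 and 46.9 to 119 CPM for 5 astrocyte markers. None of the tested markers of these lists was called, and their part in the level of *GHRHR* was not tested. *TRHR* was 14.2 ± 13.4 CPM in the mid-aged and 3.64 ± 2.57 CPM in the young (log2 fold change 1.27 ± 0.90 SE, edgeR FDR 0.864), and without macaque 7 it was called as well (2.44, FDR 0.0742), among 151 genes in place of 30.

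The other 5 genes differed little by age, with log2 fold changes of 0.35 for *LHX3*, 0.21 for *POU1F1*, −0.23 for *NR5A1*, 0.09 for *SIX2* and −0.28 for *GNRHR* (edgeR, FDR 0.763 to 0.963). Mid-aged and young glands did not separate for any of the 7, beside 3.90% of the genes tested whose groups did not overlap. Of the hormones, *GHV* was lower in the mid-aged (−2.56 ± 0.50 SE) and *PRL* higher (2.14 ± 0.50 SE), neither past the threshold (edgeR FDR 0.158 and 0.268).

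Sex was compared between the 4 females and the 4 males with age stage as a covariate. Again none of the 7 genes was called, beside 0.123% of genes, by edgeR or by DESeq2 (4.26%). An unadjusted p under 0.05 in edgeR was found for 2 of them (*LHX3* and *POU1F1*), beside 21.3% of all genes. In DESeq2 it was found for 3 (*TRHR* as well), a count for which no share of all genes is given. *LHX3* was 161 ± 13.7 CPM in the females and 265 ± 82 CPM in the males (log2 fold change −0.63 ± 0.18 SE, edgeR FDR 0.218), and DESeq2 gave −0.64 with an FDR of 0.0515, past that threshold but not the fold. *POU1F1* was 811 ± 196 CPM in the females and 590 ± 86.6 CPM in the males (0.49 ± 0.20 SE, FDR 0.224). Markers of the other lobes were lower on average in the females, with overlapping ranges. Their sums were 1.19 to 10.3 CPM in the females and 0.375 to 64.3 CPM in the males for 3 posterior lobe markers. For the 2 intermediate lobe markers, again almost all *PCSK2*, they were 5.53 to 48.2 CPM and 11.9 to 132 CPM. None of these markers was called, and their part in the levels of the 7 genes was not tested. Females and males did not separate for any of the 7, beside 7.66% of the genes tested whose groups did not overlap. The ranges of *LHX3* met narrowly, since macaque 10 (176 CPM) lay above macaque 7 (172 CPM). *TRHR* was 14.4 ± 13.2 CPM in the females and 3.42 ± 2.64 CPM in the males (1.47 ± 0.90 SE, edgeR FDR 0.331), and it was called when macaque 7 was left out (2.65, FDR 0.00502), where 1983 genes were called in place of 18. *GNRHR* (−0.77), *GHRHR* (−0.60), *NR5A1* (−0.31) and *SIX2* (0.03) had FDR values of 0.299 to 0.938.

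The 2 mid-aged females stood apart in other genes too. In macaques 6 and 11 *PRL* took 29.9% and 22.5% of all counts, against 2.81% to 9.36% in the other glands, and secretory markers summed to 25711 and 19376 CPM, against 8325 to 14758 CPM. Markers of the posterior lobe summed to 1.19 and 1.76 CPM there and to 0.375 to 64.3 CPM in the other 6. The part of lobe sampling and of cell numbers in these differences was not tested. *TRHR*, with 24.6 and 27 CPM, was the gene among the 7 in which these glands stood furthest from the rest.

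**Figure D4:**
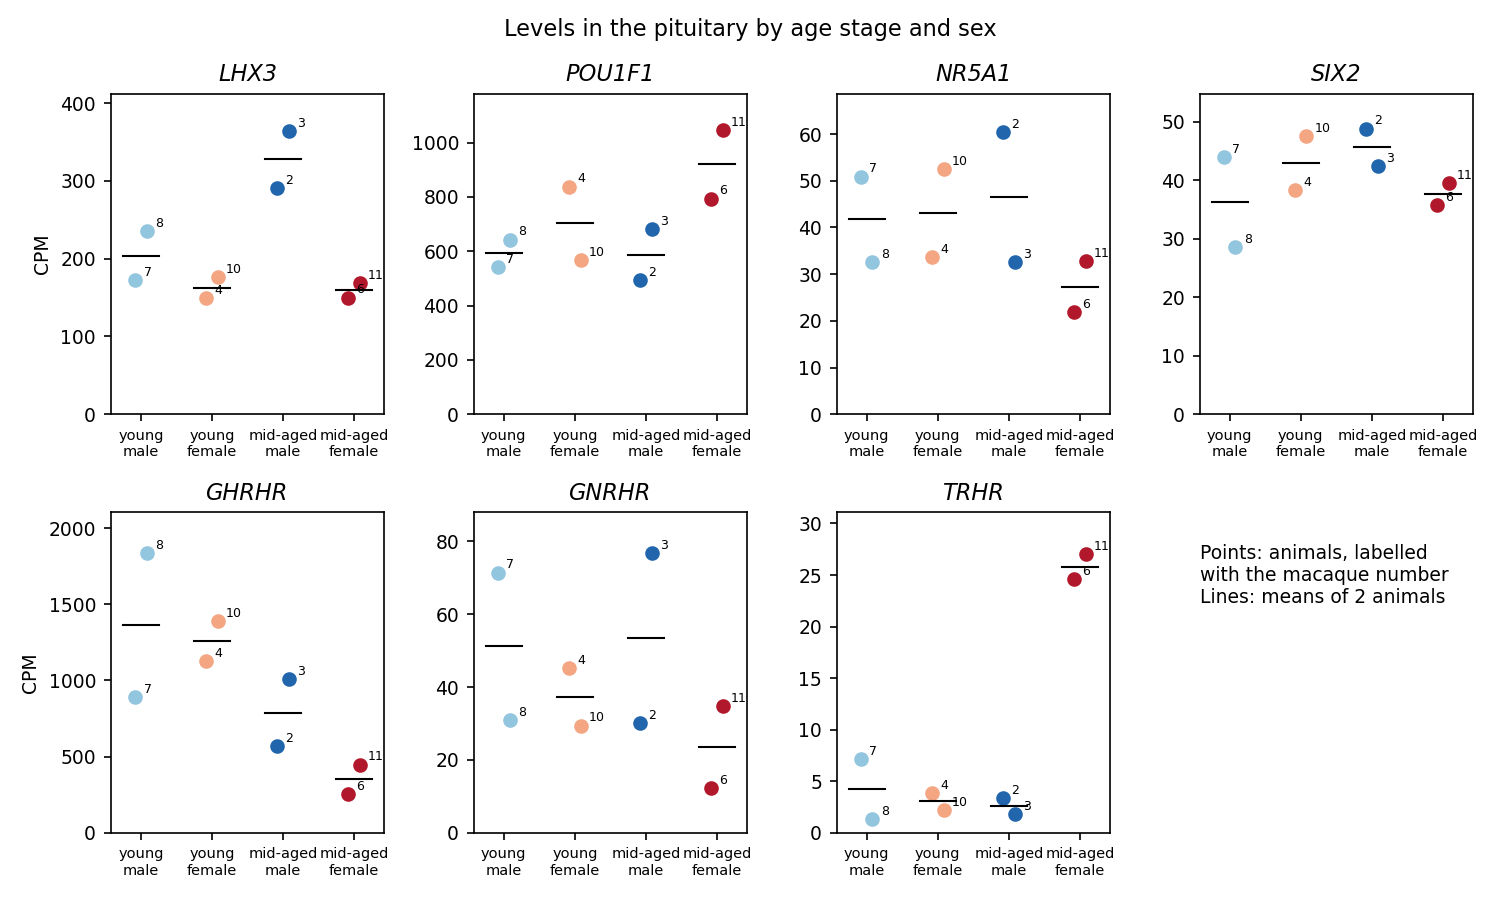
CPM of the 7 genes in the pituitary of each animal by age stage and sex, with lines at the means of 2 animals and the macaque number beside each point. *TRHR* is high in both mid-aged females (24.6 and 27 CPM) and at most 7.14 CPM in the other 6 animals, and *GHRHR* is lowest in the same females (254 and 447 CPM).

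Within the pituitary, pairs of a factor or receptor and the hormone or receptor gene of its cell lineage were compared over the 8 animals on log2(CPM + 1). Of 15 pairs listed 12 could be run, and p-values are from exact permutation tests, two-sided, with Benjamini-Hochberg adjustment over the 12. *GHRHR* and *GHV*, receptor and hormone of the somatotropes, had Pearson's *r* 0.95 (exact p 5.21e-04, adjusted 0.00625) and Spearman's rho 0.95 (exact p 0.00114, adjusted 0.0137). Both were lowest in macaque 6 (254 and 3361 CPM) and highest in macaque 8 (1835 and 84921 CPM). Of 14593 other genes, 13 (0.0891%) followed *GHV* as strongly as *GHRHR* did. Without macaques 6 and 11, the animals farthest from the median of *GHRHR*, *r* was 0.88 (exact p 0.0139, adjusted 0.167). All 4 young glands were above all 4 mid-aged glands for *GHV*, so within an age stage only 4 animals were left and no *r* is given.

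*TRHR* and *PRL* had *r* 0.86 (exact p 0.0140, adjusted 0.0842) and rho 0.69 (exact p 0.0694), with 2.22% of other genes as strong. Macaques 6 and 11 had 341847 and 231698 CPM of *PRL* and the other 6 glands 25829 to 82624 CPM. The relation rests on those animals, as *r* fell to 0.11 without them. *GNRHR* and *LHB*, both of the gonadotropes, had *r* 0.75 (exact p 0.0280, adjusted 0.112) and rho 0.62, and *r* 0.38 without macaques 3 and 6. *LHB* itself ran from 2.60 CPM in macaque 6 to 1230 CPM in macaque 3.

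The other 9 pairs had *r* between −0.51 and 0.59 with adjusted exact p of 0.391 to 0.802. They included *POU1F1* with *GHV* (−0.27), *PRL* (0.59) and *GHRHR* (−0.37), and *NR5A1* with *LHB* (0.33), *FSHB* (−0.51) and *GNRHR* (0.38). *LHX3* and *CGA* had 0.11, *SIX2* and *CGA* −0.30, and *GNRHR* and *FSHB* −0.29. *SIX2* and *CGA* changed sign without macaques 2 and 8 (0.71), and *NR5A1* and *GNRHR* had a rho of −0.07.

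**Figure D5:**
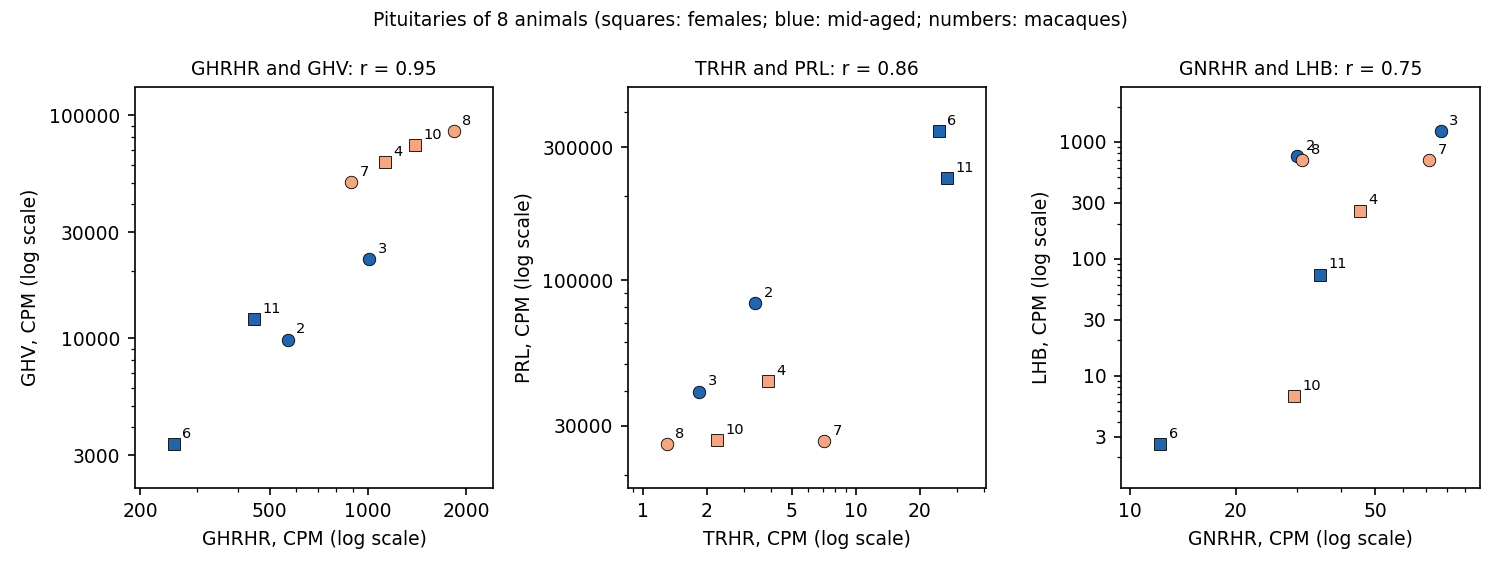
CPM of 3 gene pairs in the pituitaries of 8 animals, both axes on a log scale, squares for females, circles for males, blue for mid-aged and orange for young animals, numbered by macaque. *GHRHR* and *GHV* rise together over all 8 glands (*r* 0.95), whereas for *TRHR* and *PRL* (*r* 0.86) macaques 6 and 11 stand apart from the other 6.

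Outside the gland, age and sex were compared in the amygdala, hippocampus, hypothalamus and cerebral cortex. No call was made for any of the 7 genes that passed the filter there, from 2 genes in the amygdala and hippocampus to 4 in the cortex, by edgeR, or by DESeq2 where it gave an adjusted p, which it did not for the 2 genes by age in the hippocampus. For age, edgeR called no gene at all in these 4 region groups, with 201, 1058, 268 and 1087 genes (1.37%, 6.53%, 1.79% and 5.48%) at an unadjusted p under 0.05, and DESeq2 called 3, 21, 7 and 76 (0.0205%, 0.153%, 0.0467% and 0.383%). For sex, edgeR called 13, 16, 14 and 18 genes (0.0887%, 0.0988%, 0.0935% and 0.0908%) and DESeq2 24, 22, 24 and 35 (0.164%, 0.136%, 0.160% and 0.177%). Unadjusted p-values under 0.05 in edgeR were seen for *POU1F1* by age in the hippocampus and the hypothalamus, for *POU1F1* by sex in the hypothalamus, beside 2.07% of genes, and for *SIX2* by age in the cortex. The last had a log2 fold change of 1.63 ± 0.71 SE (edgeR FDR 0.908), which was 0.79 without macaque 6.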

How the data were processed

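RNA-seq libraries of 51 brain sub-regions from 8 rhesus macaques were used. The authors checked reads with FastQC 0.11.4, used Trim Galore 0.4.4 on samples that needed it, aligned to Mmul 8.0.1 with HISAT2 2.0.5 and summed reads over Ensembl release 91 genes by HTSeq 0.6.1. The deposited values are raw whole-number counts per gene. Strand and overlap settings of HTSeq are not given in the sources used here, so counts of overlapping genes, antisense genes and near-identical copies such as the growth hormone genes are uncertain. Of 30807 genes, 17572 had a symbol in the reference table.

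Counts were tested in R 4.3.3 with the quasi-likelihood F test of edgeR 4.0.16 (limma 3.58.1), after TMM scaling and the filterByExpr filter, with Benjamini-Hochberg adjustment over all genes tested (FDR). A gene was called between regions at an FDR under 0.05 and an absolute log2 fold change above 1, and for age or sex at an FDR under 0.1 and the same fold. The SE of a log2 fold change is its size over the square root of F. Sub-regions of a group were summed within each animal. Same-numbered libraries come from the same animal, per the labels, so region contrasts had the animal as a block, and age and sex were each other's covariate. Gene pairs used exact permutation tests in Python 3.11.15 with scipy 1.17.1. The depth of 7784678 to 31083490 counts leaves genes with few counts imprecise. A level of 0 allows up to 3 counts, and intervals at 95% cover counting error only. The tests were first run on simulated data.

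The 8 genes, the gene lists and the pairs were chosen with earlier results of these data known. The text names the 8 genes, all hormones and hypothalamic ligands with a row, and up to 3 called genes in each direction from the other lists. It also names up to 3 of the genes most alike to each of the 7 with a row. For those with at least 1 CPM on average in another sub-region this was done also without the pituitary. Alternatives were DESeq2 1.42.0, its size factors, the looser filter, no block or covariate, other pseudocounts (0.1 for 1), Spearman's rho and each animal left out. Leaving out the medial orbital gyrus library of macaque 11, the hypothalamus library of macaque 6 or the pons was added after the data were seen. The *TBX19* row, 3 pairs without a row for a partner, promoter motifs, assembled transcripts and open chromatin were not analysed here, and some named genes of the lists are not reported here.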

Additional observations from a re-analysis of the deposited data

Results flagged for a closer look

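Over the 8 animals, 28 sets of levels were examined for a library far from its neighbours by Dixon's criterion, and 8 were marked. Many sets outside the gland were those described above, chosen with their values known. The 8 marked sets therefore cannot be compared with the 1 in 20 that chance alone would mark. The medial orbital gyrus library of macaque 11 accounted for 5 of the 8. It held 35.4 CPM of *GHRHR* (next animal 0.321), 16.6 CPM of *POU1F1* (next 4.95), 4.02 CPM of *LHX3* (next 0.250), 1.83 CPM of *NR5A1* (next 0.515) and 0.282 CPM of *GNRHR* (next 0.117), the last from 4 counts.

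In the medulla oblongata, macaque 8 stood apart for *LHX3* with 1.72 CPM (next 0.551) and macaque 6 for *SIX2* with 2.26 CPM (next 1.02). In that library of macaque 6 the connective tissue markers summed to 426 CPM, against 147 to 200 CPM in the other 7, and the part of these in the *SIX2* level was not tested. Over all sub-regions outside the pituitary, macaque 6 had a mean *SIX2* level of 0.796 CPM, against 0.195 CPM in the next animal.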

How the results depend on the processing

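Against the other sub-regions, 7 of 7 genes were called under each alternative run. Where the main filter on low counts was kept, the calls of *LHX3*, *GHRHR* and *GNRHR* were set by it. With the animal as a replicate block or without it, the counts of calls were close (6982 and 6936 genes against the other sub-regions, 5254 and 5213 against the hypothalamus). Without the block, *TRHR* was called against the hypothalamus (log2 fold change 1.63, edgeR FDR 0.0275), and *SIX2* was no longer called in the cortex (−1.17, FDR 0.0501) or the entorhinal and perirhinal cortex (1.06, FDR 0.135). Among region groups, 16 calls became 15 without the block and 9 without the pons (5 of them among the 16, with *NR5A1* no longer tested), and the contrasts of the 4 genes kept their call in 97 of 107 fits. DESeq2 called 157 genes for age in the pituitary (1 of the 7, *GHRHR*) where edgeR called 30, 562 genes for sex where edgeR called 18, and 212 over the 8 contrasts of the other region groups where edgeR called 61. Without sex as a covariate edgeR called 0 genes for age. When 1 animal at a time was left out, the genes called ran from 0 (without macaque 2, 4 or 10) to 151 for age and from 13 to 1983 for sex, both highest without macaque 7, with 0 to 2 and 0 to 1 of the 7 among them. In these fits the age difference of *SIX2* ran from −0.08 to 0.19 and that of *GNRHR* from −0.70 to 0.01, and the sex difference of *SIX2* from −0.14 to 0.12. Without the 2 animals farthest from the median, 0 of 12 pairs passed in place of 1, and *SIX2* and *CGA* turned to 0.71. By Spearman's rho *NR5A1* and *GNRHR* turned to −0.07. With a pseudocount of 0.1, 21 of the 36 most alike genes were named again. The cause of these changes was not tested. Depth limits *LHX3*, *GHRHR* and *GNRHR* outside the gland, where most libraries held a few counts or none.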
